A study of Mus musculus with 22 samples.

Results

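Of 30170 genes in the count table, 22 reached a set level in every differentiating W330R library. They were over 2 times higher there than in every differentiating WT library. The cells were C3H 10T1/2, a mouse mesenchymal line that turns into adipocytes under hormonal induction, in lines made to express DNMT3A1, a de novo DNA methyltransferase, as WT, as the W330R mutant or as the double mutant W330R-R181E. RNA was sequenced from 22 libraries with 2 replicates per condition, covering undifferentiated cells and days 2, 4 and 6 for WT and W330R, and days 2, 4 and 6 for the double mutant. Undifferentiated cells grew in medium with 10% serum. Differentiation began with 2 days in troglitazone (5 μM), insulin (5 μg/mL), dexamethasone (1 μM) and isobutylmethylxanthine (0.5 mM), and insulin medium followed, renewed at intervals of 2 days. The labels name the double mutant R181E, whereas the columns of its 6 libraries in the count table say R181A.

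Members were chosen on CPM, a gene's reads divided by all reads counted in that library and multiplied by 1000000. The lowest of the 6 W330R libraries of days 2 to 6 had to reach 2 CPM, and the highest of the 6 WT libraries of those days had to stay more than 2 times below that value. The rule took 0.0729% of the genes in the table. These 12 libraries chose the members, so the gap between W330R and WT on days 2 to 6 is a description and was not tested. The 4 undifferentiated and the 6 double mutant libraries were not used by the rule. All 22 members passed the filter on low counts, in a total of 14520 genes tested. With no fold or level set, 607 tested genes (4.18%) had their lowest W330R library of days 2 to 6 above their highest WT library. Just inside the threshold were Ezr, Ptges and H2-D1, with the lowest W330R library at 2.01, 2.05 and 2.15 times the highest WT library. Just outside were Zfp57 at 1.94, Gm10499 at 1.93 and H2-Q6 at 1.92 times.

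Type I and type II interferons are secreted alarm proteins that bind cell surface receptors and switch on a large set of interferon-stimulated genes. Their products cut viral RNA, tag proteins with ISG15, tether budding viruses and raise the display of peptides on MHC class I molecules. Many of these genes carry an interferon-stimulated response element before their start, a short DNA stretch with GAAA repeats that IRF proteins recognise.

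By their roles, 11 of the 22 members stood on a list of 80 interferon response genes, 66 of them among the 14520 tested. They were Oas1a and Oasl2 (oligoadenylate synthetase family), Isg15 (a ubiquitin-like modifier), Usp18 (the protease that removes it), Bst2 (tetherin), Trim30a (a TRIM family ubiquitin ligase), Gbp9 (a guanylate-binding protein), Ifi44, and Sp100, Sp140 and Csprs of the SP100 gene family. Another 4 were MHC class I genes on a list of 35 antigen presentation genes (H2-K1, H2-D1, H2-Q4 and H2-Q5), and H2-Bl is a further MHC class I gene outside the list. Gm4951 and F830016B08Rik encode predicted interferon-inducible GTPases and stood on no list. The 4 members with other roles were Npy1r (a receptor for neuropeptide Y), Phf21b (a PHD finger protein), Ptges (prostaglandin E synthase) and Ezr (ezrin, which links the membrane to actin). Of 19 lists, 17 others held no member beyond Ptges among the cytokines, chemokines and their receptors and Npy1r among the G protein-coupled receptors and regulators. The lists were chosen with earlier results of these data known, so these overlaps are a description and were not tested.

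The DNA before the start of 6 members is printed to show the GAAA repeat in 4 interferon-stimulated members and the CpG-rich start of 2 others. Each sequence is the 200 bases before the start on the gene's own strand, from RefSeq on GRCm38.p6. In the first 4, capitals mark matches of GAAANNGAAA on either strand. Isg15 lies at chr4:156200819-156201018, Oas1a at chr5:120907526-120907725, Bst2 at chr8:71537473-71537672 and Trim30a at chr7:104465194-104465393, each on the minus strand.
Isg15: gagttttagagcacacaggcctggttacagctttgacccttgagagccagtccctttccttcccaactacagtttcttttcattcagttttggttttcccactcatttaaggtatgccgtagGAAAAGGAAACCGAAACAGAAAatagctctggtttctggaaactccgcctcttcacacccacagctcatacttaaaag
Oas1a: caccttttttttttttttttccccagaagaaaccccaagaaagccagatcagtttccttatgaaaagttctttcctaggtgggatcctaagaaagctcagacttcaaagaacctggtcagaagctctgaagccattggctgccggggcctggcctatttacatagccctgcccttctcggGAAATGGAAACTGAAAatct
Bst2: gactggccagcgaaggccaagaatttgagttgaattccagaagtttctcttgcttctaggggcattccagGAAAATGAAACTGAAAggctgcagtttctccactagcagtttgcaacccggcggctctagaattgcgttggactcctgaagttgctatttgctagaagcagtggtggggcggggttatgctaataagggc
Trim30a: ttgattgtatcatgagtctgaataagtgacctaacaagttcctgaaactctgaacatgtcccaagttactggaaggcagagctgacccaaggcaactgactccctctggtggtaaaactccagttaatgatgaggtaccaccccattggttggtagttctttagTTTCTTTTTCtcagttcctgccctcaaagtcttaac
In Isg15, 3 overlapping matches began 78, 72 and 66 bases before the start, in Oas1a 2 overlapping matches began at 20 and 14 bases, and in Bst2 2 began at 130 and 124 bases. Trim30a had 1 match, at 36 bases, which reads on the opposite strand. In the next 2 sequences, capitals mark CpG, the dinucleotide that DNMT3A methylates. Phf21b lies at chr15:84855100-84855299 and Ezr at chr17:6782781-6782980, both on the minus strand.
Phf21b: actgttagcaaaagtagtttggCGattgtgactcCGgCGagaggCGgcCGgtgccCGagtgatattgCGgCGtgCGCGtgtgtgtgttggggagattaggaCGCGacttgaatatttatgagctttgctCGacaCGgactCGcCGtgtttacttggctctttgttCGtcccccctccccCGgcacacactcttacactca
Ezr: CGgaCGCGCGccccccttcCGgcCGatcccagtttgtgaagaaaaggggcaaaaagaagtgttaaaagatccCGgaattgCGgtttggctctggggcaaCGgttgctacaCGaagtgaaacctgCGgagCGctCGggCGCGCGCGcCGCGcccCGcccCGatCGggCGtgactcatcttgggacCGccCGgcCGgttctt
The stretch before Phf21b held 18 CpG and that before Ezr 26.

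Over windows of 300 bases (250 before and 50 after the start), promoters were at hand for 15 of the 22 members and for 10261 of the 14520 tested genes. The ratio of observed to expected CpG, which is near 1 in CpG islands and low in the bulk of the genome, had a median of 0.393 over the members and 0.749 over the tested genes. It passed 0.6 in 3 of 15 members (20%: Ezr at 1.10, Phf21b at 1.02 and H2-D1 at 0.653), against 69% of the tested genes. Trim30a had 0 CpG in its window, Sp100 had 2, and Oas1a and Oasl2 had 3 each, whereas the median over tested genes was 20. The GAAANNGAAA repeat was in 4 of 15 members (26.7%) and in 3.65% of the tested genes, a motif picked after the members were known. Among the interferon response members with a promoter at hand, Oasl2, Ifi44, Sp100 and Sp140 had no match. The letters TATAAA were found in 4 members (26.7%, against 9.02%), TGANTCA in 3 (20%, against 6.69%), GGGCGG in 5 (33.3%, against 66.3%), CCAAT in 5 (33.3%, against 42.9%) and CANNTG in 9 (60%, against 68%), both strands searched. A match here is a description of letters and was not tested.

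In the genome, RefSeq (GRCm38.p6) annotates 20 members as protein-coding and H2-Q5 and H2-Bl as transcribed pseudogenes. Chromosome 17 held 6 members, which are Ezr and the 5 MHC genes, and 4.99% of the tested genes. Sp140 and Sp100 were next to each other among the tested genes on chromosome 1. Sp110, on the other side of Sp140, missed the rule with its lowest W330R library at 1.499 CPM, although that value was 8.42 times its highest WT library. A630001G21Rik, on the other side of Sp100, was no member either. H2-Q4 and H2-Q5 were also neighbours. Several members have near copies. Of the stretches of 50 bases in their transcripts, 57.6% of those of Oas1a were also in other genes (Oas1g, Oas1b), 57.3% of those of Sp140, and 36.4% of those of H2-Q4 and of H2-Q5, so the levels of these 4 are uncertain. The share was 12.8% for H2-D1 and under 10% for the rest with a transcript in the table. Csprs had no transcript there, so its shared sequence was not checked and its level may be uncertain too. Among overlaps on the other strand, Ezr overlaps Sytl3, Sp100 and Sp140 overlap Gm17017, and Usp18 overlaps Gm44148. On the same strand, Gbp9 overlaps Gbp8 and Gbp4, Gm4951 overlaps Gm5970, Ptges overlaps Gm13400 and Sp100 overlaps n-R5s215. Whether the counting used strand is not given in the sources used here.

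**Figure D1:**
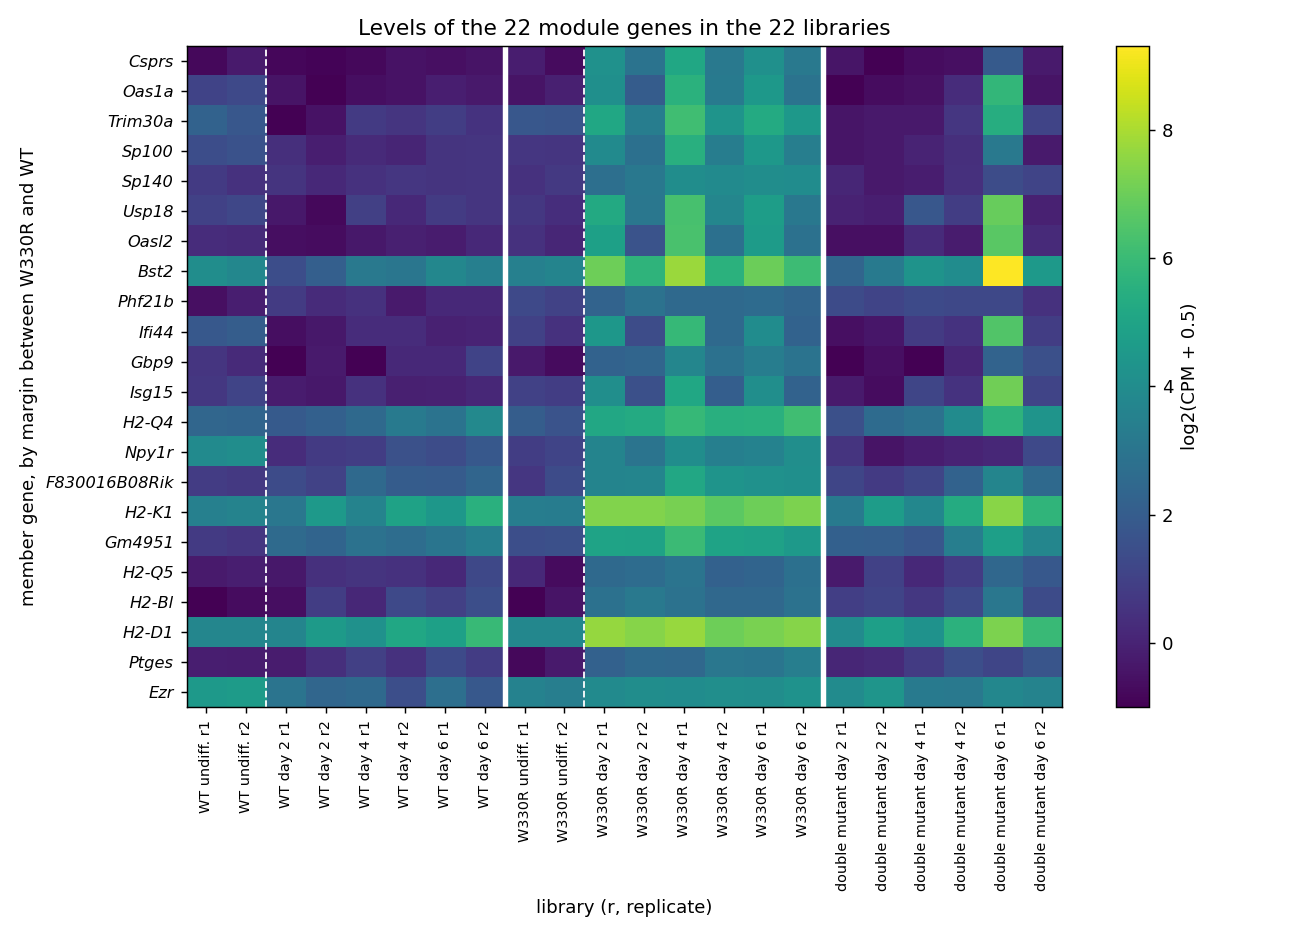
Level of each of the 22 members (rows, ordered by the ratio of the lowest W330R to the highest WT library) in each of the 22 libraries (columns), as log2(CPM + 0.5) in colour. Solid lines part WT, W330R and the double mutant, dashed lines part undifferentiated cells from days 2 to 6, and day 6 replicate 1 of the double mutant is bright for most members while its other 5 libraries are darker.

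Most of the interferon-stimulated members were under 2 CPM in WT and were many times higher in W330R. Csprs had 1, 1, 1, 4, 3 and 5 reads in the 6 WT libraries of days 2 to 6 and 186 to 829 reads in the 6 W330R libraries. Its level ran from 7.03 through a median of 13.02 to 34.9 CPM in W330R and did not pass 0.232 CPM in WT. Csprs had the widest gap of the 22 members between the lowest W330R and the highest WT library, 30.2 times. Oas1a lay at 0 to 0.415 CPM (median 0.210) in WT and at 3.55 to 47.4 CPM (median 12.9) in W330R, a gap of 8.55 times. Next came Trim30a, with 0 to 1.30 CPM (median 0.962) in WT and 9.86 to 70.9 CPM (median 28.4) in W330R. Bst2, the most abundant of this group, lay at 2.21 to 12.99 CPM (median 8.11) in WT and at 48.0 to 218 CPM (median 96.05) in W330R. The WT and W330R groups do not overlap for any member, as the rule requires. For Usp18 the medians were 0.835 and 19.4 CPM, for Oasl2 0.328 and 15.7 CPM, for Isg15 0.461 and 10.5 CPM, and for Ifi44 0.493 and 10.6 CPM.

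Sp140 differed from the other members of its family in how even its W330R values were. It lay at 0.631 to 1.04 CPM in WT, and in W330R at 6.34 and 8.27 CPM on day 2, 16.2 and 14.7 on day 4, and 16.02 and 15.8 on day 6. Sp100 in W330R had 14.6 and 6.42 CPM on day 2, 45.3 and 9.94 on day 4, and 21.96 and 10.1 on day 6, against at most 1.02 CPM in WT. Replicate 1 was thus 2.18 to 4.56 times replicate 2 for Sp100 and 0.766 to 1.10 times for Sp140.

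The classical MHC class I members had a higher base in WT, and in both WT replicates they were higher on day 6 than on day 2. H2-K1, a classical class I heavy chain, lay at 7.96, 11.8 and 21.2 CPM on days 2, 4 and 6 in WT replicate 1 and at 22.8, 30.4 and 46.4 CPM in replicate 2. In W330R it lay at 161 and 162 CPM on day 2, 145 and 105 on day 4, and 131 and 154 on day 6. H2-D1, the other classical heavy chain, lay at 12.2 to 60.2 CPM (median 26.1) in WT and at 129 to 207 CPM (median 173) in W330R. For both, WT replicate 2 was above WT replicate 1 on each day, as for 6 of the 22 members (Gbp9, H2-Q4, Npy1r and H2-Bl besides), against 14.9% of the tested genes. H2-Q4, a nonclassical class I gene, had medians of 6.09 and 45.5 CPM in WT and W330R. The predicted GTPases Gm4951 and F830016B08Rik had medians of 6.35 and 3.46 CPM in WT and of 30.4 and 17.5 CPM in W330R. The medians were 0.868 and 5.49 CPM for H2-Q5, 1.38 and 6.77 CPM for H2-Bl and, among the interferon genes, 0.492 and 6.92 CPM for Gbp9.

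The members outside the interferon and MHC groups were at modest levels. Npy1r lay at 0.737 to 3.11 CPM (median 1.74) in WT and at 7.33 to 16.6 CPM (median 11.7) in W330R. Phf21b lay at 0.348 to 1.25 CPM (median 0.684) in WT and at 4.41 to 6.95 CPM (median 5.22) in W330R, where replicate 1 was 0.634 to 1.21 times replicate 2. Ptges lay at 0.369 to 2.02 CPM (median 1.08) and at 4.14 to 10.1 CPM (median 6.37). Ezr, at 2.29 to 7.37 CPM (median 5.01) in WT and 14.8 to 18.4 CPM (median 16.2) in W330R, had the lowest ratio of means of the 22 members, 3.37, where the median ratio was 10.5.

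**Figure D2:**
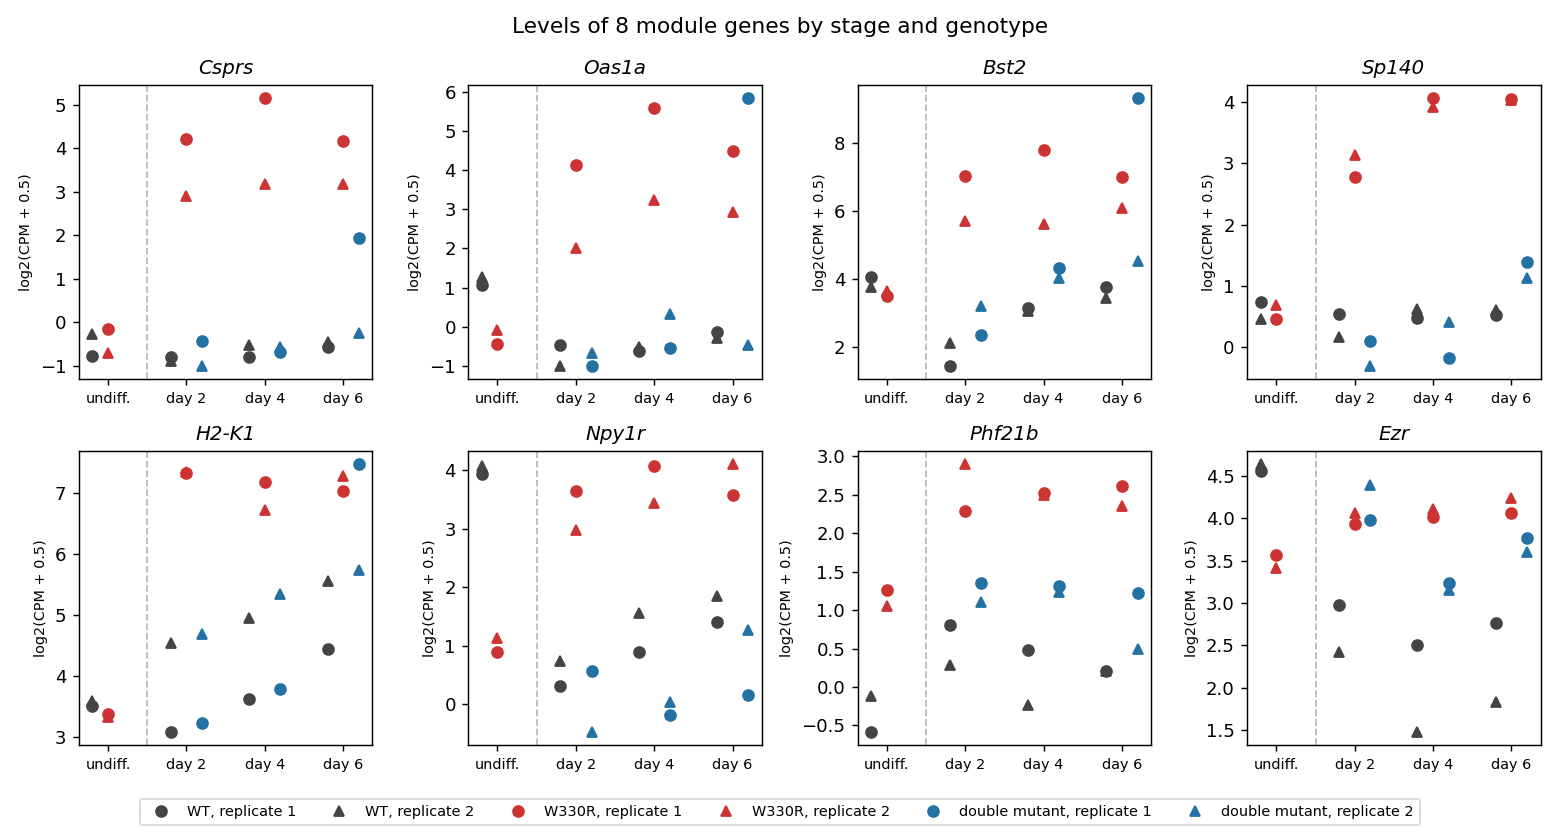
Level of 8 members as log2(CPM + 0.5), by stage, in WT (dark grey), W330R (red) and double mutant (blue) libraries, with circles for replicate 1 and triangles for replicate 2. W330R lies above WT at days 2 to 6 in each panel, and in undifferentiated cells W330R lies below WT for Oas1a, Bst2, H2-K1, Npy1r and Ezr and above it for Phf21b.

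The comparison of undifferentiated cells asks whether the members already differed between W330R and WT before induction, in libraries that the rule did not use. In edgeR's quasi-likelihood test with Benjamini-Hochberg adjustment over 14520 genes, 1 member was higher in W330R (0.792% of all genes were) and 1 was lower (0.957%). Phf21b had 2 and 10 reads (0.168 and 0.421 CPM) in WT and 24 and 14 reads (1.90 and 1.57 CPM) in W330R. It was higher by 2.41 ± 0.50 on the log2 scale (SE, adjusted p = 0.03002, n = 2 and 2), in the same direction as on days 2 to 6. Npy1r had 14.7 and 16.3 CPM in WT and 1.35 and 1.69 CPM in W330R. Its log2 fold change was -3.39 ± 0.61 (SE, edgeR adjusted p = 0.0115), opposite to its direction on days 2 to 6. With any 1 of the 4 libraries left out neither member was called, while 3 or 4 members had an unadjusted p under 0.05 and between 48 and 58 genes were called in all.

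Ezr was also lower in undifferentiated W330R cells, with 22.9 and 24.4 CPM in WT and 11.3 and 10.1 CPM in W330R, but it did not pass the test (log2 fold change -1.17 ± 0.31, adjusted p = 0.0787, edgeR). DESeq2 called it. The interferon-stimulated members were low in undifferentiated cells of both genotypes. The model shared its estimate of the spread over all 22 libraries, and the SE of several of these members was wide. The log2 fold change was -2.42 ± 1.83 for Oas1a, -0.81 ± 1.69 for Usp18, 0.019 ± 1.98 for Oasl2 and -1.50 ± 1.52 for Ifi44. A missing call therefore does not show equal levels for these members. Oas1a lay at 1.59 and 1.90 CPM in WT and at 0.238 and 0.450 CPM in W330R, and Bst2 at 16.2 and 13.02 CPM and at 10.7 and 11.9 CPM. H2-K1 lay at 10.8 and 11.5 CPM and at 9.91 and 9.56 CPM. Both W330R libraries were below both WT libraries for 11 of the 22 members, where 28.6% of the tested genes showed this, and above both for 3 (Phf21b, Gm4951 and H2-D1), where 34% did. Over the 22 members the median log2 fold change in undifferentiated cells was -0.27, and over all tested genes -0.0043. Of the wider lists, 1 of 66 interferon response genes (Ifi47) and 1 of 30 antigen presentation genes (Tap2) were called, both higher in W330R.

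Npy1r, Ezr and several interferon-stimulated members moved in opposite directions between stages in WT and W330R, which was not tested. Npy1r went from 14.7 and 16.3 CPM in undifferentiated WT cells to at most 3.11 CPM on days 2 to 6, and in W330R from 1.35 and 1.69 CPM to at least 7.33 CPM. Ezr in WT went from at least 22.9 CPM to at most 7.37 CPM, and in W330R from at most 11.3 CPM to at least 14.8 CPM. Oas1a in WT went from at least 1.59 CPM to at most 0.415 CPM, and in W330R from at most 0.450 CPM to at least 3.55 CPM. Ifi44 in WT went from at least 3.10 CPM to at most 0.751 CPM, and in W330R from at most 1.51 CPM to at least 2.15 CPM. Trim30a, Sp100, Usp18, Oasl2, Isg15 and Bst2 moved the same way, with the WT stages barely apart for Usp18, Oasl2 and Bst2. The remaining members did not. All 6 W330R libraries of days 2 to 6 were above both undifferentiated W330R libraries for 22 of 22 members, against 33.6% of the tested genes, a comparison that holds libraries chosen to be high. In the count table the undifferentiated columns carry names of a different form from the rest, and a shift between sets of libraries and the start of differentiation cannot be told apart.

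**Figure D3:**
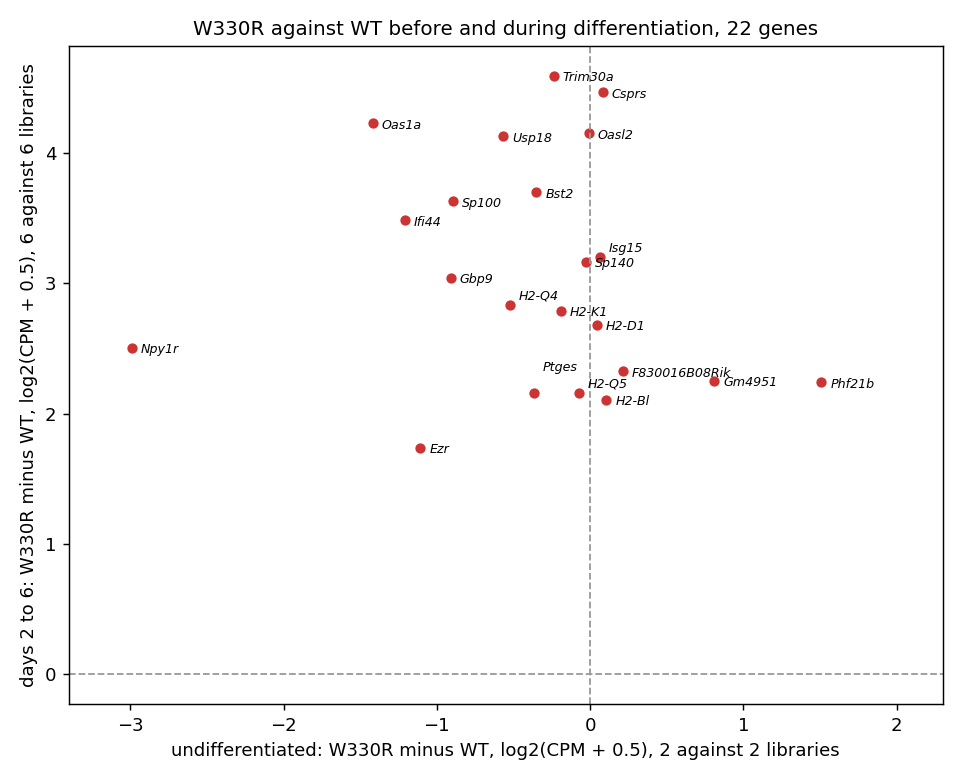
W330R minus WT in undifferentiated cells (x axis, 2 against 2 libraries) and on days 2 to 6 (y axis, 6 against 6 libraries, the contrast that chose the members), as differences of mean log2(CPM + 0.5), for the 22 members. Npy1r lies farthest left at -2.99, Phf21b farthest right at 1.51, and all 22 lie above 0 on the y axis by choice.

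The double mutant asks whether the gain persists when R181 is changed as well. In 5 of its 6 libraries the members lay, by their median, closer to WT than to W330R, and day 6 replicate 1 stood apart. To place each library, the difference from the WT mean was divided by the difference between the W330R and WT means, on log2(CPM + 0.5), so that 0 is the WT level and 1 the W330R level. The median over the 22 members was -0.15 and -0.084 on day 2, -0.0076 and 0.17 on day 4, 0.94 in day 6 replicate 1 and 0.30 in day 6 replicate 2. WT and W330R libraries were chosen to be low and high here, so these positions are given with no test.

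All 6 double mutant libraries were below the lowest W330R library for 5 of 22 members (Csprs, Sp140, Phf21b, Npy1r and Ptges), where 2.71% of the tested genes were. Without day 6 replicate 1, the other 5 were below it for 21 members, where 4.32% of the genes were, all but Ezr. Sp140 lay at 0.573 and 0.312 CPM on day 2, 0.384 and 0.837 on day 4, and 2.13 and 1.69 on day 6, each far from the 6.34 CPM of the lowest W330R library. Npy1r lay at 0.982, 0.223, 0.384, 0.528, 0.611 and 1.92 CPM in the same order, with a mean 0.424 times that of WT. Ptges reached 2.82 CPM at most.

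Ezr and Phf21b were the members with the double mutant farthest toward W330R once that library was left out. Ezr lay at 15.3 and 20.5 CPM on day 2, 8.95 and 8.41 on day 4, and 13.1 and 11.6 on day 6. Each value was above the highest WT library (7.37 CPM), which held for this 1 member and 0.792% of the tested genes. Phf21b lay at 2.05 and 1.65 CPM on day 2, 1.98 and 1.85 on day 4, and 1.83 and 0.903 on day 6, between the groups of WT and W330R except for the last.

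In day 6 replicate 1 of the double mutant, Bst2 reached 632 CPM, against 4.58 to 22.5 CPM in the other 5 libraries. Isg15 reached 132 CPM against at most 1.73 CPM, Usp18 119 CPM against at most 2.94 CPM, and Oasl2 100.2 CPM against at most 0.703 CPM. These values were also above every W330R library, as for Oas1a, Ifi44 and H2-K1, in all 7 members of 22 and 17.5% of the tested genes. This library was the highest of the 6 for 18 of 22 members, where it was so for 23.7% of the genes, and over 2 times the next for 15 members, where it was so for 1.97%. The exceptions to its being highest were Phf21b, Npy1r, Ptges and Ezr, the 4 members outside the interferon and MHC groups. Csprs and Sp100 lay at 3.30 and 8.48 CPM there, below their W330R medians of 13.02 and 12.3 CPM.

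The test of day 6 against day 2 within the double mutant turned on that library for members such as Usp18 and Sp100. In edgeR's test 17 members were higher on day 6 (12.9% of all genes were) and 0 were lower (10.3%). Ezr was lower at an unadjusted p under 0.05. DESeq2 called 0 members lower and 18 higher, where it called 1738 and 2199 of 14520 genes. Sp140 rose by 2.04 ± 0.38 on the log2 scale (SE, edgeR adjusted p = 0.00229), H2-Q4 by 2.92 ± 0.57 (adjusted p = 0.00303) and F830016B08Rik by 2.49 ± 0.48 (adjusted p = 0.00290). Without day 6 replicate 1, which leaves 1 library on day 6, the rise was 1.85 for Sp140, 2.08 for H2-Q4 and 1.74 for F830016B08Rik. It was 2.01 for Ptges, 0.092 for Sp100 and -0.10 for Usp18. Without day 2 replicate 1 Sp140 rose by 2.39 and H2-Q4 by 2.42, and without day 2 replicate 2 by 1.69 and 3.82. In a fit of the 4 compared libraries alone, 18 members were tested and 0 were called by edgeR, with 13 at an unadjusted p under 0.05. That fit called 62 of 12930 genes higher and 18 lower. H2-K1 lay at 8.835 and 25.2 CPM on day 2 and at 177 and 53.1 CPM on day 6, and rose by 2.56 ± 0.75 (edgeR adjusted p = 0.0253). Its rise was 1.45 without day 6 replicate 1 and 1.98 without day 2 replicate 1. Over the 22 members the median log2 fold change was 2.74, and over all tested genes -0.0049.

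Other gene groups moved in the same contrast of the double mutant, and their part in the members' result was not tested. In edgeR's test 46 of 66 interferon response genes and 19 of 30 antigen presentation genes were higher on day 6. Higher as well were 6 of 8 stromal markers, 3 of 5 smooth muscle markers, 41 of 94 matrix genes and 21 of 45 cell cycle genes, while of 7 adipocyte markers 1 was higher and 1 lower. Leaving out day 6 replicate 1 was a setting added after the data were seen. It leaves 1 library on day 6, so effect sizes are given and calls are not. The median log2 fold change went from 3.55 to 1.22 on the interferon list and from 1.84 to 1.18 on the antigen presentation list. It went from 1.89 to 1.61 for stromal markers and from 2.17 to 2.35 for smooth muscle markers. For matrix genes it went from 1.36 to 0.931, and for cell cycle genes from 1.21 to 1.16.

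The members that spread most between replicates in W330R were also those raised most in that double mutant library. W330R replicate 1 was over 2 times replicate 2 on each of days 2, 4 and 6 for 7 members (Csprs, Oas1a, Sp100, Usp18, Oasl2, Ifi44 and Isg15), where 0.73% of the tested genes were. For Oasl2 the ratio was 10.8 on day 2, 12.5 on day 4 and 3.68 on day 6, and for Ifi44 it was 9.93, 11.3 and 3.80. For Npy1r it was 1.64, 1.57 and 0.684. The highest W330R library was day 4 replicate 1 for 15 members, where it was so for 19.5% of the genes. Across the 22 members, the ratio of W330R replicate 1 to 2 and the ratio of double mutant day 6 replicate 1 to the highest of the other 5 had a Spearman rho of 0.824, a description across genes that share the same libraries.

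**Figure D4:**
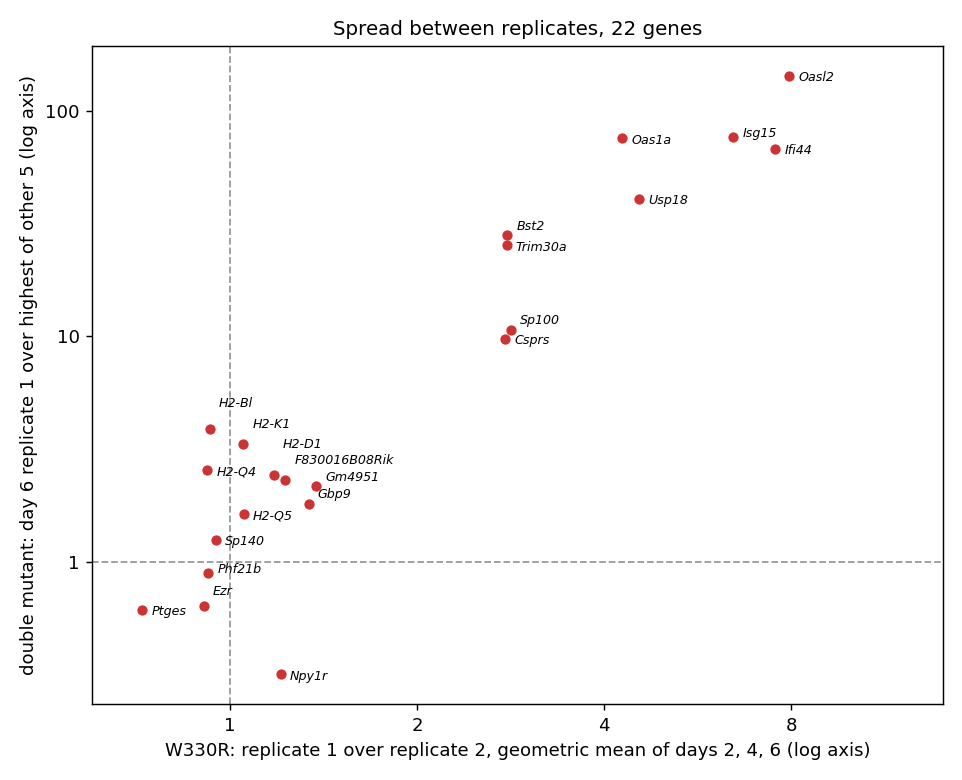
For each of the 22 members, W330R replicate 1 over replicate 2 as the geometric mean of days 2, 4 and 6 (x axis, log) against double mutant day 6 replicate 1 over the highest of the other 5 double mutant libraries (y axis, log). Oasl2, Ifi44 and Isg15 lie at the upper right, and Npy1r, Ezr, Ptges and Phf21b lie below 1 on the y axis.

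Beside the members stood the other genes of the pathway. Of the 55 tested interferon response genes that were no members, 18 had their lowest W330R library above their highest WT library on days 2 to 6, against 4.18% of all tested genes, and 0 had the reverse. Of the 26 tested antigen presentation genes that were no members, 9 had it and 0 the reverse. This is the contrast that chose the members, so these counts are descriptions with no test. Ifit1 (a sensor of foreign RNA) spread from 2.61 to 127 CPM in W330R and reached 2.31 CPM in WT, and B2m, the light chain of MHC class I, lay at 553 to 1000.1 CPM in W330R and at 204 to 520.2 CPM in WT. In the double mutant, day 6 replicate 1 was the highest library for 48 of these 55 interferon genes and 24 of these 26 antigen presentation genes. The summed level of the interferon list, members included, was 5831 CPM there and 549 to 1239 CPM in the other 5, against 650 to 1513 CPM in WT and 1395 to 3870 CPM in W330R.

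Transcripts of the ligands were scarce. Ifnb1, Ifna1, Ifna2, Ifna4, Ifng, Ifnl2, Ifnl3 and Ifnk had at most 2 reads in each of the 22 libraries, and Ifne at most 12. Under 3 reads, a level of up to 0.339 CPM in the shallowest library could not be told from 0. Receptors of type I and type II interferon were present in all libraries. Ifnar1 lay at 90.2 to 134 CPM and Ifnar2 at 25.6 to 55.3 CPM. Ifngr1 lay at 35.2 to 214 CPM and Ifngr2 at 24.8 to 75.7 CPM. Ifnlr1, a further interferon receptor, had at most 5 reads in each library.

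Between 8859501 and 47453908 reads were counted per library. The 8 stromal markers summed to 16960 to 20386 CPM in undifferentiated cells and, on days 2 to 6, to 2845 to 12766 CPM in WT, 4113 to 15501 CPM in W330R and 2583 to 13992 CPM in the double mutant, the highest of its 6 being day 6 replicate 1. The 7 adipocyte markers summed to 2446 to 8812 CPM in WT, 1545 to 2465 CPM in W330R and 1784 to 4323 CPM in the double mutant on days 2 to 6, the lowest of its 6 being day 6 replicate 1. The part of these marker levels in the members' results was not tested. Markers of macrophages, of which 4 of 5 were in the table, summed to at most 14.7 CPM, and Tyrobp was at 0 in every library. Dnmt3a lay at 326 and 330 CPM in undifferentiated WT, 308 and 316 CPM in undifferentiated W330R, and on days 2 to 6 at 109 to 275 CPM in WT, 88.9 to 153 CPM in W330R and 72.0 to 133 CPM in the double mutant. These counts do not separate introduced from endogenous Dnmt3a, so they do not check the labels. In RNA from whole cultures, fewer cells of a type and less RNA per cell cannot be told apart.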

How the data were processed

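RNA-seq counts were analysed for C3H 10T1/2 cells, with groups taken from the sample titles. The authors deposited whole read counts per gene symbol, not normalized. The submitters' processing notes name kallisto, DESeq2 1.40 and GRCm39, without saying how each was used. The undifferentiated columns carry no day in their names. The titles do not say whether replicates are separate cultures, so p-values measure only the spread between these samples.

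CPM used column totals. The members and gene lists were chosen with earlier results of these data known. With 22 members, every member could be named. Genes were filtered (filterByExpr, minimum count 10, minimum total 15), normalized by TMM and fitted in 1 quasi-likelihood model with 1 mean per condition in edgeR 4.0.16 (R 4.3.3). Calls used a two-sided Benjamini-Hochberg adjusted p below 0.05. The printed SE is the log2 fold change over the root of the F statistic. The fit was tested on simulated counts. Promoters and gene order came from RefSeq on GRCm38.p6, and shared 50-base sequences and overlaps from GENCODE transcripts. This build differs from that of the counts, so it served for names, sequences and neighbours. Alternatives were DESeq2 1.42.0, RLE, no filter, a fit of the compared libraries, a replicate block, other rule thresholds, other pseudocounts and leaving out each library. A floor of 3 counts covers counting error only. The result for 1 other gene was left out.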

Additional observations from a re-analysis of the deposited data

Results flagged for a closer look

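For 11 members both undifferentiated W330R libraries were below both WT libraries, whereas all W330R libraries of days 2 to 6 were above all WT libraries by choice, so the direction differed between stages. The difference between stages was not tested. As W330R minus WT in mean log2(CPM + 0.5), the undifferentiated difference was -2.99 for Npy1r, -1.42 for Oas1a, -1.21 for Ifi44, -1.11 for Ezr, -0.91 for Gbp9 and -0.895 for Sp100. It was -0.569 for Usp18, -0.523 for H2-Q4, -0.368 for Ptges, -0.352 for Bst2 and -0.19 for H2-K1. Of these, Npy1r passed the main test in undifferentiated cells, and DESeq2 called Npy1r and Ezr. The fit of the 4 compared libraries called 5 lower (Npy1r, Ezr, Oas1a, Sp100 and Ifi44) and 2 other members higher. That fit called 2143 of 11891 genes lower and 2051 higher. Gbp9 had 12 and 16 reads in WT and 4 and 1 in W330R.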

How the results depend on the processing

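With 2 libraries per condition and a floor of 3 reads, under which a level cannot be told from 0, low members such as Csprs, Oas1a and Gbp9 in WT have no precise level. The rule gave 19 genes with TMM library sizes (18 shared, without Ezr, Gm4951, H2-Bl and H2-D1, and with Zfp57), where TMM shifts every W330R to WT difference of days 2 to 6 by -0.13 on the log2 scale. It gave 42 at a fold of 1.5, 9 at a fold of 3, 34 at a lowest W330R level of 1 CPM and 14 at 5 CPM. With 1 library left out it gave 22 to 38, the most without W330R day 2 replicate 2.

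In undifferentiated cells 2 members were called, 3 with DESeq2, 7 with the 4 compared libraries alone, and 0 with any library left out. All genes called numbered 254, 528 with DESeq2, 4194 with the 4 libraries alone, 392 with the replicate block and 48 to 58 with a library left out. Phf21b then ranged from 2.00 to 3.30 and Npy1r from -3.55 to -3.23. The titles link same-numbered libraries by a number alone, and whether these libraries share more is not given. Their deviations had a mean correlation of 0.137 over 55 pairs of conditions. Over the 36 pairs within days 2 to 6 it was 0.215. The replicate block called the same 2 members there, and 18 instead of 17 between day 6 and day 2 of the double mutant (4312 instead of 3369 genes).

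Between day 6 and day 2 of the double mutant, 0 members and 80 genes were called with the 4 compared libraries alone, and 4 to 16 members and 1315 to 3806 genes with a library left out. Usp18 ranged from -0.10 (without day 6 replicate 1) to 7.91, and the cause was not tested. Members with every double mutant library below W330R numbered 5 to 21, members above WT 1 to 2 (the second without day 6 replicate 2), and the median position was 0.063 to 0.34 around 0.25. Other pseudocounts kept that position within the spread between libraries, and promoters of 250 bases also gave 3 and 4 members, but 6 instead of 9 with CANNTG, 2 instead of 3 with TGANTCA and 3 instead of 4 with TATAAA.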
